A study of Homo sapiens with 6 samples.

Results

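The 10 genes studied belong to fatty acid synthesis, elongation, desaturation and activation, and were followed in RNA of extracellular vesicles (EVs) and whole cells (WC) of K562, a human chronic myelogenous leukemia line with erythroid features. The genes were chosen by symbol: ACLY, ACACA, FASN, SCD, FADS1, FADS2, ELOVL1, ELOVL5, ELOVL6 and ACSL4. They are 10 of 68201 gene IDs counted, and all 10 were among the 8716 genes that passed the filter on low counts and were tested.

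The study asked which transcripts of a cell are found in the vesicles it releases. There were 3 EV and 3 WC libraries, all of wild type, untreated K562 cells grown in RPMI with serum. EVs came from conditioned medium, for which the serum had been depleted of vesicles, by filtration and size exclusion chromatography. RNA was reverse transcribed from poly(A) tails, amplified by PCR and sequenced on nanopore flow cells. All libraries derive from 1 cell line, so p-values measure the spread between replicate cultures of that line.

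De novo synthesis starts when ACLY splits exported citrate to cytosolic acetyl-CoA. ACACA carboxylates acetyl-CoA to malonyl-CoA, and FASN joins malonyl units into palmitate. The ELOVL enzymes lengthen acyl chains in the endoplasmic reticulum, SCD and the FADS enzymes insert double bonds, and ACSL4 couples long polyunsaturated acids to coenzyme A.

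Total gene counts were 560157 to 881338 in EV and 2480560 to 3178211 in WC libraries. A single read was therefore worth 1.35 to 2.27 CPM (reads per 1000000 counted, scaled by the TMM method) in EV and 0.25 to 0.337 CPM in WC libraries. The erythroid markers GATA1, HBG1, HBG2, KLF1 and TAL1 had reads in both groups. GATA1, a defining erythroid transcription factor, had 178 EV and 1014 WC reads. Of 9 tested genes of the erythroid list 4 rose, HBG2 (log2 fold change 4.30), HBZ (3.20), TAL1 (2.25) and HBG1 (0.75), and 2 fell, TFRC (-1.11) and NFE2 (-0.52), at adjusted p under 0.05 by edgeR. HBG1 and HBG2 are near-identical copies, so the split of reads between them is uncertain. The summed level of the 10 genes of that list was 639.5 to 707 CPM in EV and 462 to 536 CPM in WC libraries. Of 8 markers of other blood cells 3 had no read, and of 8 markers of liver, fat and epithelium 4 had none. CD3D, a T cell receptor chain, had 58 EV and 272 WC reads, and EPCAM, an epithelial adhesion protein, had 59 EV and 761 WC reads. The summed level of the blood cell list was 29.6 to 49.9 CPM in EV and 27.7 to 34.04 CPM in WC libraries. That of the liver, fat and epithelium list was 22.9 to 49.2 CPM in EV and 58.6 to 97.5 CPM in WC libraries. Their part in the results was not tested.

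The 3′ ends of the assembled isoform models are shown first because reads start from poly(A) priming. Each line gives 30 bases of the sense strand (GRCh38), and capitals mark a poly(A) signal hexamer (AATAAA or ATTAAA, searched on the sense strand in the last 40 bases) or, in the line named short end, the run of genomic A past the model's end. The short end line runs from 10 bases before the model's end to 20 past it. The ELOVL5-202 line stops 10 bases before the model's end, and its hexamer starts 37 bases before that end. The other lines stop at the model's end.
FADS1 long end, chr11:61799627-61799656, minus strand: gttgaaaAATAAAgttaattttgaccaaaa
FADS1 short end, chr11:61801885-61801914, minus strand: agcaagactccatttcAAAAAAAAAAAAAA
ELOVL5-201, chr6:53267404-53267433, minus strand: aaacagtaatcATTAAAacatttttgatta
ELOVL5-202, chr6:53294098-53294127, minus strand: atgAATAAAgcaaagtgtaaatcagaggtt
ELOVL1-201, chr1:43363401-43363430, minus strand: tgtcttaATTAAAagtgacagaggaaacca
ACACA, chr17:37084992-37085021, minus strand: gttgaAATAAAcctctacatttgtagaaga
The last 4 lines are shown for ELOVL5, whose 2 leading models end at different sites, and for ELOVL1 and ACACA, which fell in EVs.

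FADS1 was the member with the most isoform models, 20 of 84, and with the most reads in its listed models. Its leading model, with the authors' pooled mean of 77.2 normalized reads, has 6 exons and 3866 nt and ends at the long end. On the minus strand it starts at chr11:61810885, inside the gene, while FADS1-201 starts at 61816778. This model was predicted to carry a premature stop codon, a prediction that covers only its part of the gene. FADS1-201, at 48.3 normalized reads, has 12 exons, was predicted productive and ends at the short end, 2278 nt before its annotated end. Of the 20 genomic bases past the short end 15 are A, and no hexamer lies in the 40 bases before it. Models of FADS1 whose end is followed by at least 12 A in 20 bases held 42.1% of its listed level. Across all members 3 of 17 listed models had such an A-rich stretch, all 3 of FADS1, and 12 of 17 had a hexamer. The stretch was found at 9.75% and a hexamer at 60.7% of 12908 listed isoforms of all genes. Whether cDNA was primed inside the transcript there was not tested.

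ELOVL5 had 2 main models. ELOVL5-201 was at 33.6 normalized reads, with 8 exons and 2765 nt. ELOVL5-202 was at 22.3 normalized reads, with 3 exons and 604 nt, of which 200 nt are shared with ELOVL5-201. The annotated coding sequence is 897 nt in ELOVL5-201 and 264 nt in ELOVL5-202. A gene count of ELOVL5 therefore holds reads of a long and of a short form. SCD (37.4), ACACA (14.1), ELOVL1 (8.95) and FASN (21.8) each had 1 listed model, and ACLY had 2. The FASN model starts inside the gene, has 6472 nt of the 8464 nt of the canonical transcript and was predicted to lack a start codon. No model of FADS2, ELOVL6 or ACSL4 was listed. Of the 17 listed models 13 were predicted productive. These means pool EV and WC libraries, so they do not compare the groups.

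**Figure D1:**
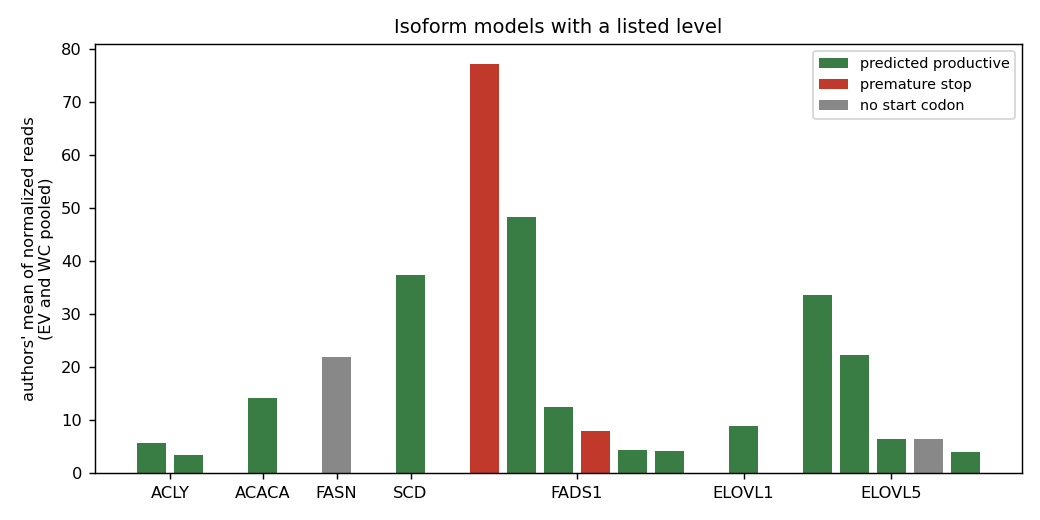
Authors' pooled mean of normalized reads (vertical axis) of each of the 17 listed isoform models, grouped by gene and coloured by predicted productivity. The highest bar, at 77.2, is the FADS1 model that starts inside the gene and has a predicted premature stop. The next, at 48.3, is FADS1-201.

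ELOVL1, ACACA and FADS2 fell in EVs, and no member rose. With the replicate as a block 2 members fell, ELOVL1 and ACACA, and FADS2 missed the threshold (edgeR adjusted p = 0.067). In that fit 1693 of all 8716 genes tested fell and 1890 rose. Over all genes tested 21.4% fell and 22.8% rose at an adjusted p under 0.05 in edgeR's quasi-likelihood test without the block. The 3 of 10 and 0 of 10 of that fit stand beside these shares. Of protein-coding genes 22.2% fell and 14.9% rose. The median log2 fold change of the 10 members was -0.14, beside -0.13 over all genes tested and -0.24 over protein-coding genes tested. No member passed the study's stricter thresholds, a log2 fold change of at least 2 in size with an adjusted p of 0.01 or less, which 5.93% of genes passed toward WC and 4.53% toward EVs. All 3 EV libraries lay below all 3 WC libraries for 4 members (30.3% of all genes) and above them for 1 (24.9% of all genes). Counts are relative, so less of an RNA and more of the RNA around it cannot be told apart. With total counts in place of TMM the median of all genes moved to -0.77.

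ACLY, the citrate lyase (chr17:41866917-41930542), had 21.5, 22.7 and 11.2 CPM in EV libraries, against 18.9, 17.3 and 20.5 CPM in WC libraries. The groups overlapped, and the log2 fold change was 0.00 (95% interval -0.62 to 0.63, adjusted p = 0.99 by edgeR).

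ACACA, the acetyl-CoA carboxylase that makes malonyl-CoA (chr17:37084992-37406836), fell. Its level was 14.8, 29.5 and 20.1 CPM in EV libraries, against 34.7, 36.0 and 34.5 CPM in WC libraries, with no overlap. On the log2 scale EVs differed from WC by -0.78 ± 0.28 (SE, edgeR adjusted p = 0.026). Without EV replicate 1 the adjusted p was 0.19, and without EV replicate 3 it was 0.062. ACACA also has a gene ID on an alternative scaffold that holds 3 of its 9 isoform models and has 0 counts in every library. The pseudogene HMGB1P24, inside ACACA on the same strand, had 22 EV and 18 WC reads.

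FASN, the synthase that makes palmitate (chr17:82078338-82098294), had 14.8, 24.95 and 26.9 CPM in EV libraries, against 13.8, 9.26 and 15.4 CPM in WC libraries. EV replicate 1 lay within the WC range, so the groups overlapped. The log2 fold change was 0.73 ± 0.34 (SE) and missed the threshold (adjusted p = 0.083 by edgeR, 95% interval 0.03 to 1.42). Without EV replicate 1 it was 0.99 with an adjusted p of 0.036. The ratio of FASN to ACACA reads, which needs no scaling between libraries, was 1.0, 0.846 and 1.33 in EV, against 0.398, 0.257 and 0.446 in WC libraries.

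**Figure D2:**
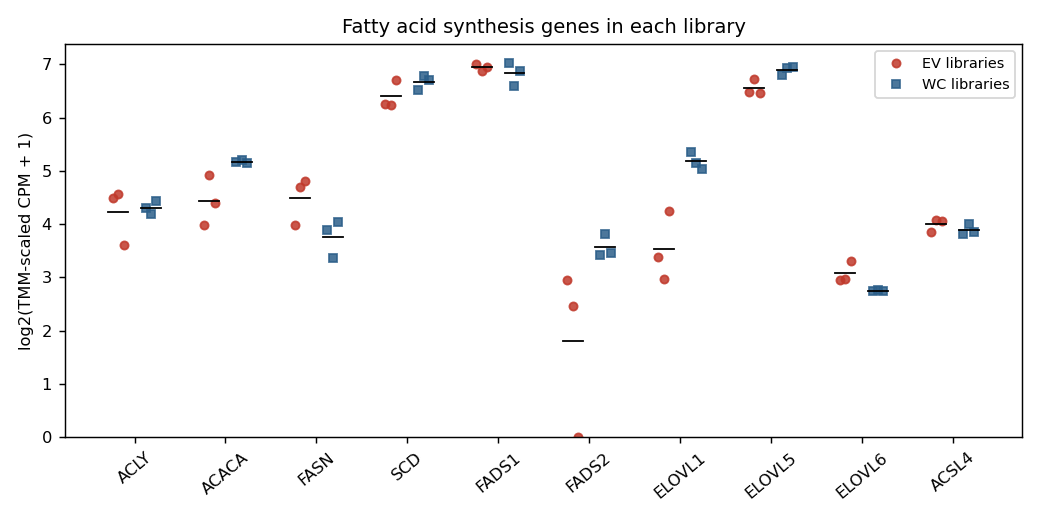
Level of each gene in each library as log2(TMM-scaled CPM + 1), EV libraries (circles) left of WC libraries (squares), with black lines at the group means of these log2 values. ELOVL1, ACACA, FADS2 and ELOVL5 have all EV points below all WC points, and only ELOVL6 has them all above.

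SCD, the stearoyl-CoA desaturase that makes monounsaturated acids (chr10:100347233-100364826), had 75.3, 74.8 and 103 CPM in EV libraries, against 90.9, 109 and 104 CPM in WC libraries. The groups overlapped at a log2 fold change of -0.28 (95% interval -0.68 to 0.12, adjusted p = 0.26 by edgeR). Its pseudogene SCDP1 had 3 EV and 15 WC reads.

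FADS1, the delta-5 desaturase (chr11:61799627-61829318), had 128, 116 and 123 CPM in EV libraries, against 130, 95.9 and 116 CPM in WC libraries. The groups overlapped, with a log2 fold change of 0.11 (95% interval -0.27 to 0.48, adjusted p = 0.65 by edgeR). It had the most EV reads of the members, 201.

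FADS2, the delta-6 desaturase (chr11:61792980-61867354), had the fewest EV reads of the members, 5, 2 and 0, against 29, 52 and 35 in WC libraries. In CPM these were 6.73, 4.54 and 0 in EV libraries, against 9.77, 13.0 and 9.98 in WC libraries. A count of 0 in EV replicate 3 allows up to 6.71 CPM (3 reads). FADS2 fell by 1.36 ± 0.54 on the log2 scale (SE, edgeR adjusted p = 0.044), but with the replicate as a block the adjusted p was 0.067. The call was also lost without EV replicate 2 (0.084), EV replicate 3 (0.2) or WC replicate 2 (0.098), and under DESeq2 (0.11). FADS2 and FADS1 overlap on opposite strands, and FADS2 also overlaps FEN1, a flap endonuclease gene on its strand with 70 EV and 177 WC reads. The lncRNA ENSG00000289268, within FADS2 on the opposite strand, had 34 EV and 391 WC reads, beside 7 and 116 of FADS2. The strand setting of the counting is not given in the sources used here. The study reports a class of ambiguous reads, from regions shared by genes, that stayed unassigned. Whether reads in these overlaps were counted for FADS2, for the other gene or left out cannot be told.

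ELOVL1, which elongates saturated very long chains (chr1:43363398-43368074), fell. It had 9.42, 6.80 and 17.9 CPM in EV libraries, against 39.7, 34.3 and 31.9 CPM in WC libraries, with no overlap. The mean was 3.11-fold higher in WC, and the log2 fold change was -1.66 ± 0.33 (SE, adjusted p = 0.00021 by edgeR). ELOVL1 fell in all 15 alternatives run, between -2.29 and -1.47. It rests on 18 EV reads and 367 WC reads.

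ELOVL5, which elongates polyunsaturated chains (chr6:53267398-53349179), had 88.8, 104 and 87.3 CPM in EV libraries, against 111, 121 and 123 CPM in WC libraries. The groups did not overlap, yet the log2 fold change of -0.35 missed the threshold (95% interval -0.72 to 0.03, adjusted p = 0.13 by edgeR). ELOVL6, which elongates palmitate to stearate (chr4:110045846-110199199), had 6.73, 6.80 and 8.95 CPM in EV libraries, against 5.73, 5.76 and 5.70 CPM in WC libraries. Its EV values rest on 5, 3 and 4 reads, and the log2 fold change was 0.36 (95% interval -0.58 to 1.29, adjusted p = 0.55 by edgeR).

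Within the elongases the ratio of ELOVL1 to ELOVL6 reads was 1.4, 1.0 and 2.0 in EV, against 6.94, 5.96 and 5.6 in WC libraries. The ratio of ELOVL1 to ELOVL5 reads was 0.106, 0.0652 and 0.205 in EV, against 0.36, 0.283 and 0.259 in WC libraries. The ratio of SCD to FADS1 reads overlapped between the groups. These ratios share genes with the folds above and are given as descriptions.

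**Figure D3:**
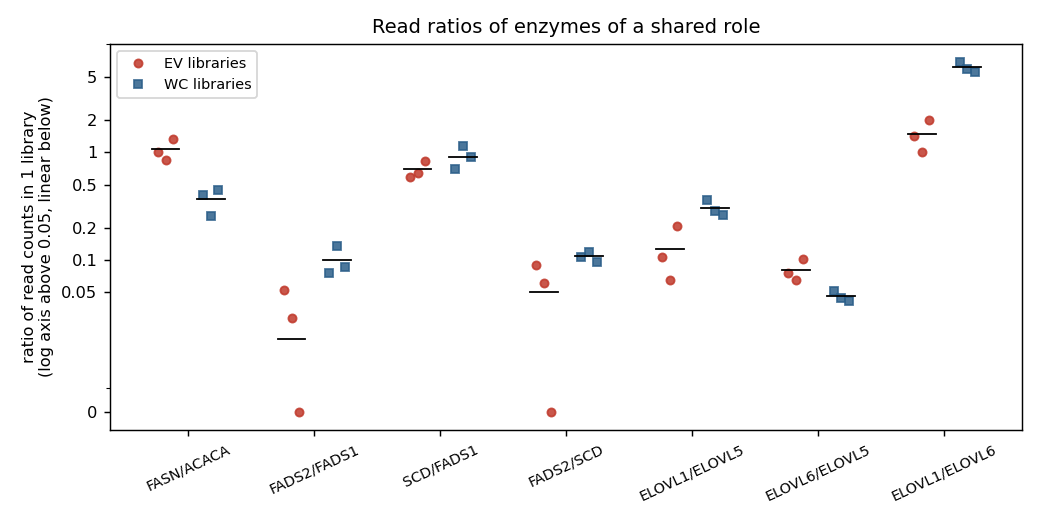
Ratio of read counts of 2 enzymes within each library (vertical axis, log above 0.05 and linear below), EV circles left of WC squares, black lines at the means. ELOVL1/ELOVL6 lies between 1.0 and 2.0 in EV and between 5.6 and 6.94 in WC libraries, while SCD/FADS1 overlaps.

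ACSL4, which activates arachidonic and related acids (chrX:109624244-109733403), had 13.5, 15.9 and 15.7 CPM in EV libraries, against 13.1, 15.0 and 13.4 CPM in WC libraries. The groups overlapped at a log2 fold change of 0.08 (95% interval -0.59 to 0.76, adjusted p = 0.86 by edgeR).

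Levels of different genes were compared as TPM over summed exon length, within a group. That length can exceed the canonical transcript, with 10228 against 4364 nt for FADS1 and 10553 against 3091 nt for FADS2. The order depends on this choice. By mean CPM, without length, FADS1 (122) led in EVs, before ELOVL5 (93.5) and SCD (84.4). In WC ELOVL5 (118) led by CPM, before FADS1 (114) and SCD (101). In EVs the order was ELOVL5 (12.3 ± 1.37 TPM, SD, n = 3), SCD (8.05 ± 1.14), FADS1 (6.03 ± 0.726), ELOVL1 (2.26 ± 1.03), ACLY (1.81 ± 0.69), FASN (1.18 ± 0.269), ACACA (0.821 ± 0.256), ACSL4 (0.754 ± 0.0228), ELOVL6 (0.516 ± 0.0614) and FADS2 (0.187 ± 0.176). Neighbours from ELOVL1 down to ACSL4 lay within their SDs of each other. In WC ELOVL5 (30.6 ± 3.7 TPM, SD, n = 3) and SCD (19.0 ± 2.71) also led, followed by ELOVL1 (13.8 ± 0.645), FADS1 (10.9 ± 1.45), ACLY (3.57 ± 0.481), ACACA (2.65 ± 0.181), ACSL4 (1.37 ± 0.144), FASN (1.36 ± 0.375), FADS2 (1.02 ± 0.186) and ELOVL6 (0.774 ± 0.0501). There ACSL4 and FASN, and FASN and FADS2, lay within their SDs. SCD, FADS1 and ELOVL5 held 72.6% to 77.0% of the members' reads in EV and 70.9% to 72.3% in WC libraries. The members together took 0.0319% of gene counts in EV and 0.0583% in WC libraries, shares on the total-count scale, on which the median gene was also lower in EVs (-0.77).

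Longer genes had lower fold changes in these libraries, with Spearman's rho of -0.376 across 8701 genes, which are not independent replicates. The median log2 fold change was 0.93 among the shortest 20% of genes by exon length and -0.52 among the longest 20%. Of the members 8 were longer than the median gene of 4602 nt, and the trend at their lengths ran from -0.60 at ACACA to -0.16 at ELOVL1, the shortest member at 2506 nt. With the trend removed ELOVL1 was at -1.50 and remained called. ACACA (-0.18, adjusted p = 0.66) and FADS2 (-0.86, adjusted p = 0.25) were no longer called by edgeR, while FASN (1.21, adjusted p = 0.0073) and FADS1 (0.60, adjusted p = 0.011) were higher in EVs. In that fit 23.0% of all genes rose and 14.0% fell. The trend was taken at summed exon length, 10228 nt for FADS1 and 10553 nt for FADS2. Their canonical transcripts have 4364 and 3091 nt, so the values of both genes in this fit depend on the length chosen. The cause of the length trend was not tested.

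**Figure D4:**
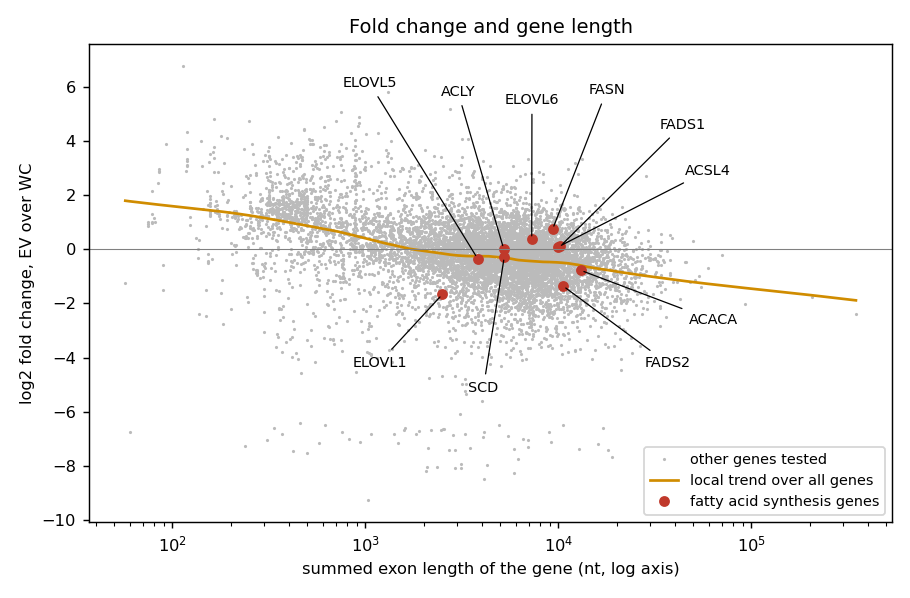
Log2 fold change of EV over WC against summed exon length (nt, log axis) for 8701 genes (grey), with the local trend (line) and the 10 members (red). ELOVL1 lies below the trend at 2506 nt, and FASN lies above it at 9321 nt.

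**Figure D5:**
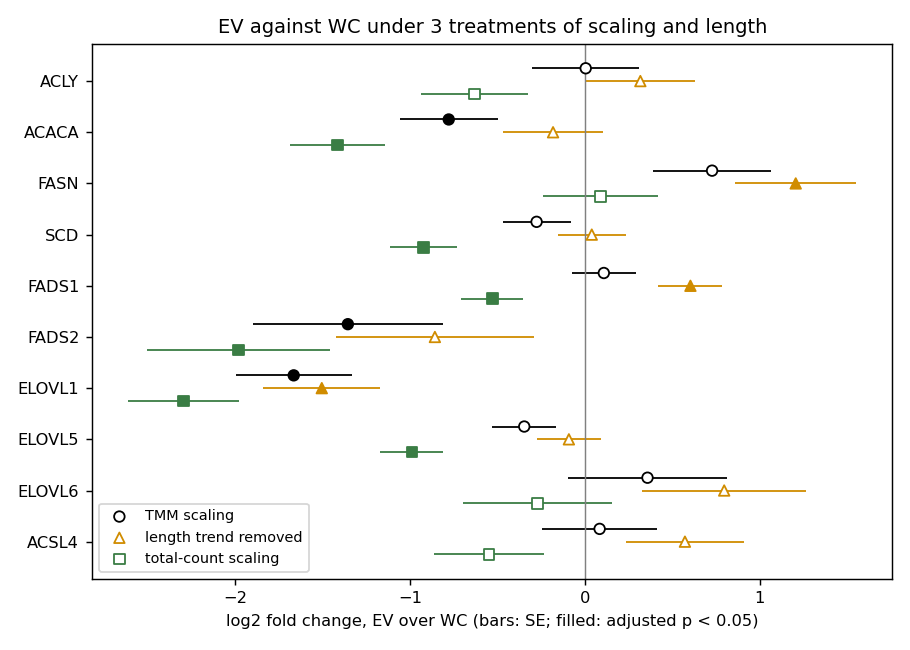
Log2 fold change of EV over WC (horizontal axis, bars SE) for each member with TMM scaling, with the length trend removed and with total-count scaling. Filled symbols mark an adjusted p under 0.05, and ELOVL1 is the only member filled in all 3.

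The surrounding pathway was read from 11 lists of 122 genes, of which 72 were tested. Of those tested 10 were called higher in EVs and 17 lower, each at an adjusted p under 0.05 by edgeR. The median over the 72 was -0.45 on the log2 scale, beside -0.13 over all genes tested and -0.24 over protein-coding genes tested. Over all genes 22.8% rose and 21.4% fell, and of protein-coding genes 14.9% rose and 22.2% fell. The counts of each list below are read against these shares. In citrate and NADPH supply 3 of 8 tested genes rose and 2 fell. SLC25A1, the mitochondrial citrate carrier, was higher in EVs (log2 fold change 1.24). IDH1, the cytosolic isocitrate dehydrogenase, was lower (-1.07), and so was PGD, the phosphogluconate dehydrogenase (-0.61). Of 3 other chain-building genes tested none passed the threshold.

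In the remaining elongation cycle 2 of 4 tested genes fell, HACD3, a hydroxyacyl-CoA dehydratase (-1.76), and ELOVL7 (-1.90, on 3 EV and 74 WC reads). Of 6 other desaturases and electron donors tested 3 fell, among them FADS3 (-1.61) and CYB5R1, a cytochrome b5 reductase (-1.67). Among 4 other acyl-CoA synthetases tested SLC27A5 rose (1.36) and ACSL3 fell (-1.08). Of 10 regulators of the SREBP and LXR pathways tested 1 fell, MBTPS1, the site-1 protease that cleaves SREBP (-1.77). None of 3 AMPK genes tested passed.

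Of 4 binding proteins tested 2 rose, DBI, the acyl-CoA binding protein (1.35), and ACBD3 (1.06). DBI had 151, 202 and 159 CPM in EV libraries, against 71.1, 68.8 and 59.6 CPM in WC libraries. In fatty acid oxidation 2 of 16 tested genes rose, ACAA2 (1.83) and ECI1 (0.80), and 4 fell, among them HADH (-1.48) and ETFDH (-1.24). Among acyltransferases 4 of 10 tested genes fell and none rose. GPAT3 (-3.01) and LPCAT2 (-3.14) fell most, on 3 and 1 EV reads. In the defence against lipid peroxides 2 of 4 tested genes rose, NFE2L2 (1.31) and GPX4, the lipid peroxide reductase (0.44). With total-count scaling 6 of the 27 calls of these lists ended and GPX4 turned to -0.20. With the length trend removed 9 ended, and with the replicate block 1 did, that of GPX4 (adjusted p = 0.053).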

How the data were processed

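RNA of 3 EV and 3 WC libraries of K562 cells was measured by nanopore PCR-cDNA sequencing. The authors mapped reads to hg38 with minimap2 and deposited whole-number counts per gene from featureCounts. A second deposited table holds these counts divided by DESeq2 size factors (unit signal), which was used for symbols only. Its fold changes and p-values, the authors' own comparison, were not used. The deposited isoform table gives a pooled mean of normalized reads (signal) for FLAIR models, whose positions and predicted productivity come from a deposited BED file.

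Counts were tested with edgeR 4.0.16 (R 4.3.3) by the quasi-likelihood test after filterByExpr and TMM scaling, with Benjamini-Hochberg adjustment over 8716 genes and a threshold of 0.05. Gene positions, exon lengths and the overlaps come from GENCODE release 44. Of 68201 gene IDs 61757 were found there, holding 99.95% of counts. 46 IDs stood on 2 lines, and the second lines (0.075% of counts) were dropped. TPM used summed exon length. Reads given for a group are sums over its 3 libraries. Of the columns of per-sample values 0 were left unmapped. The floor of 3 reads covers counting error only, and PCR copies were not marked. The intervals given for fold changes come from edgeR's quasi-likelihood fit, so they also include the spread between replicate libraries.

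The members and lists were chosen with earlier results of these data known. Named genes were all members and, from each list, up to 2 called genes per direction with the largest change. Some genes that this rule or the marker lists name are not reported here. Alternatives were RLE and total-count scaling, other filters, DESeq2 1.42.0, random thinning of WC counts to match EV depth, a loess length trend (span 0.3), the replicate block and each library left out. On data simulated for EV against WC, 57.4% of 47 genes changed by 1 on the log2 scale and 95.8% of 48 genes changed by 2 were called. The simulation gave every gene the same spread between replicates, changed only 200 genes and held no length trend. Its rates therefore need not hold for the real libraries.

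By the study's methods cells and conditioned medium of a replicate were collected from the same culture, and each flow cell held 1 EV and 1 WC library, so the numbers were taken to pair the samples. The correlations of same-numbered deviations were 0.062, 0.024 and 0.005. Those of differently numbered ones ran from -0.05 to 0.034, so the values do not settle the pairing.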

Additional observations from a re-analysis of the deposited data

How the results depend on the processing

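Of 144 gene values under the alternatives, 102 kept their direction and their side of the threshold. With the replicate block FADS2 lost its call (-1.35) and ACLY turned to -0.0093, and no other member changed its call or direction. With total-count scaling 6 members fell, among them SCD (-0.92), ELOVL5 (-0.99) and FADS1 (-0.53), while ACLY (-0.63), ELOVL6 (-0.27) and ACSL4 (-0.55) turned negative uncalled, and over all genes 1083 rose and 4436 fell, against 1987 and 1864 with TMM. With the length trend removed 2 members rose and 1 fell, with ACACA at -0.18, FADS2 at -0.86, FASN at 1.21, FADS1 at 0.60 and SCD at 0.0395, and 1218 genes fell. With the block added, 2 rose and 1 fell, with ACACA at -0.18, FADS2 at -0.87, FASN at 1.21, FADS1 at 0.59 and SCD at 0.0467, and 1122 genes fell. Without an expression filter ELOVL5 fell (-0.56), and ACLY (-0.20), FADS1 (-0.10) and ACSL4 (-0.12) turned. With a mean of 5 reads ACLY was at -0.044. With WC libraries thinned ELOVL5 fell (-0.49), ACLY was at -0.13, FADS2, ELOVL6 and ACSL4 were not tested, and 1289 genes rose. Under DESeq2 FADS2 lost its call (-1.51), and ACLY (-0.11), FADS1 (-0.0015) and ACSL4 (-0.0178) turned. The cause of these changes was not tested.

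Leaving out each library gave -0.19 to 0.21 for ACLY, -1.06 to -0.53 for ACACA, 0.46 to 0.99 for FASN, -0.0769 to 0.15 for FADS1, -2.29 to -0.90 for FADS2 and -0.0125 to 0.15 for ACSL4. Between 1 and 3 members fell and 0 or 1 rose, the 1 being FASN without EV replicate 1. Over all genes these fits called 1395 to 1867 lower and 1497 to 2008 higher in EVs, of 6652 to 10781 tested. Depth limits FADS2 and ELOVL6 most, with 7 and 12 EV reads.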
